A study of Mus musculus with 2 samples.

Results

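The interferon regulatory factors (IRFs) are a family of transcription factors, and their mRNAs were measured here in mouse embryonic stem cells (mESCs) labelled as Dicer knockout (Dicer_KO). The members were taken by gene symbol, as the 8 genes Irf1, Irf2, Irf3, Irf4, Irf5, Irf7, Irf8 and Irf9 of the 43629 genes counted. All 8 were found in the count tables. The family was selected on earlier results from these counts, the levels in both libraries and the ratios between them, so the values of its members are a description.

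Both libraries carry the label Dicer knockout, an Illumina polyA RNA library of mESCs on the 129/Ola background. Replicate 1 is labelled passage 7 and replicate 2 passage 4. According to the study's methods, the mutant lines came from E14TG2a mESCs, in which pairs of CRISPR/Cas9 guides cut out part of Dicer1, and cells were sorted singly after transfection, so that a line is a clone. The study made a pair of deletions, and the labels do not say which of them a library carries. Line, passage and library therefore cannot be told apart, and a difference between the libraries has no replicate check. No WT library was analysed here, and no value below sets Dicer_KO mESCs against WT mESCs.

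IRFs bind repeats of the letters GAAA through a DNA-binding domain at their N terminus, and differ in what the rest of the protein does. IRF3 and IRF7 lie latent in the cytoplasm until kinases downstream of sensors of foreign nucleic acid phosphorylate them, and then switch on the genes for type I interferons. IRF9 is the DNA-binding subunit of ISGF3, the complex with STAT proteins that forms when interferon binds its receptor. IRF1 activates many interferon-responsive genes, among them those of antigen presentation, and IRF2 competes for the same DNA elements. IRF4, IRF5 and IRF8 are best known from lymphoid and myeloid cells.

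Since IRF genes can be targets of the factors that they serve, the DNA upstream of the members is shown first, and the values follow. RefSeq (GRCm38.p6) gave 11 windows for the 8 members, each with 250 bases before a transcription start and 300 bases in all. Each window was searched on both strands for an IRF element, which is GAAA, then 2 bases of any kind, then GAAA again, and for the STAT site known as GAS, TTCNNNGAA, which reads alike on both strands. No match of one overlapped a match of the other. The windows of Irf1, Irf2 and Irf8 are the ones with a match, and Irf7 is added because its ratio between the libraries was the largest of the family. The stretch from base -250 to base -71 before the start is printed 5′ to 3′ on the strand of the gene, with the matches in capitals. The stretches are chr11:53769764-53769943 (plus strand) for Irf1, chr8:46739495-46739674 (plus strand) for Irf2, chr7:141266495-141266674 (minus strand) for Irf7 and chr8:120736108-120736287 (plus strand) for Irf8.
Irf1: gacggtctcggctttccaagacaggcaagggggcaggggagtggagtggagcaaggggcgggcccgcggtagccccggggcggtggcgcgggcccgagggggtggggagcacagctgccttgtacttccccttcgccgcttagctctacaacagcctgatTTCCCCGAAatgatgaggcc
Irf2: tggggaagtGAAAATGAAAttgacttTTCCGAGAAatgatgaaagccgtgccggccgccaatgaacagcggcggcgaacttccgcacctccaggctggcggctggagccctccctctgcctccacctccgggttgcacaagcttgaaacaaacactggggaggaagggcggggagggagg
Irf7: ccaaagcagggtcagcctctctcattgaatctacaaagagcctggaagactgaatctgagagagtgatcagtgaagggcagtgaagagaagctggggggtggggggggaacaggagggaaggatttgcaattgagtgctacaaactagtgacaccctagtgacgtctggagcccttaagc
Irf8: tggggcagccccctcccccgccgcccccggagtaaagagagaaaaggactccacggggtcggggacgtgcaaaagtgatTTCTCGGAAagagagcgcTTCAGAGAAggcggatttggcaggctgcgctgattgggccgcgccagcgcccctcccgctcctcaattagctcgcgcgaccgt

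The Irf2 window held both elements, the IRF element at -241 to -232 and a GAS at -224 to -216, and it was the only one of the 11 with an IRF element. Over all 32851 promoter windows of this length, 3.44% held the IRF element, 8.3% held a GAS and 0.454% held both. Irf1 had 1 GAS, at -90 to -82, and Irf8 had 2, at -171 to -163 and at -153 to -145, each in the window of the first listed start. The letters of neither element stood in the windows of Irf3, Irf4, Irf5, Irf7 and Irf9, nor in those of the second starts of Irf1 and Irf8. GC content of the 11 windows ranged from 52.7% for a start of Irf9 to 75% for a start of Irf1. A match is a run of letters, and binding was not measured.

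Dicer makes the miRNAs that repress mRNAs through their 3′ UTRs, and miR-295 and miR-16 are the miRNAs that the study probed by northern blot. Their mature sequences from RefSeq are printed with the seed, bases 2 to 8, in capitals.
miR-295-3p: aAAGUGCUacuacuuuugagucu
miR-16-5p: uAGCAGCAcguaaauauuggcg

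The complement of the miR-295-3p seed, AGCACTT, occurred in the 3′ UTR of Irf2 and Irf9 and of no other member, in the main coding transcript of GENCODE M21. Irf2 held 1 match in 1236 bases, at chr8:46846664-46846670. Irf9 held 2 in 999 bases, at chr14:55609205-55609211 and chr14:55609378-55609384. The complement of the miR-16-5p seed occurred once in Irf4, at chr13:30766546-30766552, in the longest of these 3′ UTRs (3309 bases), and in no other member. Of 14411 genes with a 3′ UTR and a mean count of 10 or more, 15.1% held the miR-295-3p match and 21.6% the miR-16-5p match. Irf4 was below that mean count and is not among the 14411. Their median 3′ UTR was 939 bases. Irf7 had 42 bases, Irf3 had 502 and Irf5 had 534, so the lack of a match there says less. The sites are shown on the strand of the gene, with the match in capitals.
Irf2: accttatcttgaAGCACTTacaatagg
Irf9, first: acttgtaatctcAGCACTTggaagaca
Irf9, second: actctaaatctaAGCACTTtatatatt
Irf4: gtccttgctaatTGCTGCTcactgtca

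The libraries were of like depth, with 41710122 counts on genes in replicate 1 and 41566184 in replicate 2, and at least 10 counts for 17819 and 17461 genes. Levels are given as counts-per-million values (CPM) over all counts on genes in the library. The 95% Wilson intervals cover counting error only, and 3 counts correspond to 0.0719 and 0.0722 CPM. Dicer1, the targeted gene, had 1343 counts in replicate 1 and 1510 in replicate 2 (32.2 and 36.3 CPM). Without a WT library these counts cannot check the genotype. All 10 markers of embryonic stem cells on the list were detected, from Klf4 with 3750 and 2562 counts to Dppa5a with 199860 and 84835, and Pou5f1, which encodes OCT4, had 39069 and 43025.

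Irf1 and Irf9 made up most of the IRF mRNA in Dicer_KO mESCs, Irf2 and Irf3 followed, Irf5, Irf7 and Irf8 were low, and Irf4 was at the limit of detection. The 8 genes together had 10299 counts in replicate 1, or 247 CPM (242 to 252), and 6102 in replicate 2, or 147 CPM (143 to 151). The total was thus higher in replicate 1 by more than the counting error. Irf1 took 45.9% of these counts in replicate 1 and 37.4% in replicate 2. Irf9 took 28.6% and 40.7%, so Irf9 had the most counts in replicate 2. Per kilobase of merged exons Irf1 led in both libraries, with 51.3% and 42.5% of the family against 23.6% and 34.1% for Irf9. The 3 members best known from blood cells, Irf4, Irf5 and Irf8, took 0.00971%, 2.44% and 0.621% in replicate 1, and 0.0328%, 1.23% and 0.115% in replicate 2.

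**Figure D1:**
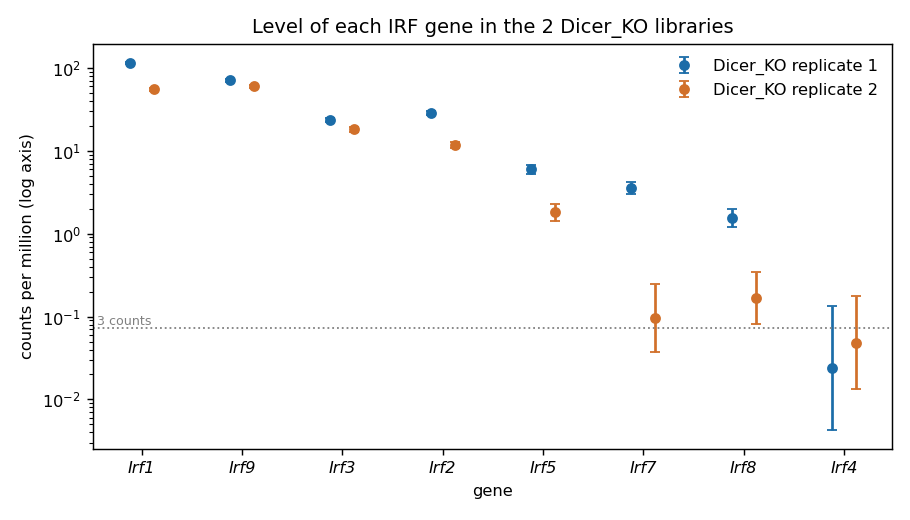
Level in CPM of the 8 IRF genes in each Dicer_KO library, on a log axis, with 95% Wilson intervals for counting error and a dotted line at 3 counts. Irf1 and Irf9 lie between 54.9 and 113 CPM, and Irf4 lies at or below the dotted line in both libraries.

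Irf1 (ENSMUSG00000018899; GRCm38 chromosome 11, 53770014 to 53778374, plus strand) encodes the activator of the interferon-responsive genes of antigen presentation. It had 4724 counts in replicate 1, or 113 CPM (110 to 117), and 2282 in replicate 2, or 54.9 CPM (52.7 to 57.2). Its mean was 84.1 ± 41.3 CPM (SD, n = 2). Replicate 1 was the higher library, and the intervals did not overlap.

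Irf2 (ENSMUSG00000031627; chromosome 8, 46739732 to 46847458, plus strand) encodes the factor that competes with IRF1. It had 1181 counts in replicate 1, or 28.3 CPM (26.7 to 30.0), and 491 in replicate 2, or 11.8 CPM (10.8 to 12.9), with a mean of 20.1 ± 11.7 CPM (SD, n = 2). Like Irf1, it was higher in replicate 1. Within a library, where no scaling between libraries enters, Irf1 had 4.00 counts per count of Irf2 in replicate 1 (exact 95% interval for counting error 3.75 to 4.27) and 4.65 in replicate 2 (4.21 to 5.13). These intervals overlapped only at their ends, which does not show that the ratio was the same in both libraries. The levels of either gene did not overlap between the libraries. Per kilobase of merged exons the ratio was 7.44 and 8.65, and per kilobase of the main coding transcript 4.67 and 5.43.

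Irf9 (ENSMUSG00000002325; chromosome 14, 55603571 to 55610030, plus strand) had 2944 counts in replicate 1, or 70.6 CPM (68.1 to 73.2), and 2482 in replicate 2, or 59.7 CPM (57.4 to 62.1). Its mean was 65.1 ± 7.69 CPM (SD, n = 2), a narrower spread than that of Irf1. The counts of Irf9 per count of Irf1 were 0.623 in replicate 1 (exact interval 0.595 to 0.653) and 1.09 in replicate 2 (1.03 to 1.15). Per kilobase of merged exons the ratio was 0.460 and 0.803, so that Irf9 was below Irf1 in both libraries on that scale.

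Irf3 (ENSMUSG00000003184; chromosome 7, 44997648 to 45002848, plus strand) and Irf7 (ENSMUSG00000025498; chromosome 7, 141262706 to 141266481, minus strand) encode the latent factors that induce interferon. Irf3 had 986 counts in replicate 1, or 23.6 CPM (22.2 to 25.2), and 759 in replicate 2, or 18.3 CPM (17.0 to 19.6), with a mean of 20.9 ± 3.80 CPM (SD, n = 2). Irf7 had 148 counts in replicate 1, or 3.55 CPM (3.02 to 4.17), and 4 in replicate 2, or 0.0962 CPM (0.0374 to 0.247). Irf7 is itself induced by interferon in many cells, whereas Irf3 is made constitutively. Irf3 was well above the limit of detection in both libraries and somewhat higher in replicate 1, whereas Irf7 was near that limit in replicate 2. There were 6.66 counts of Irf3 per count of Irf7 in replicate 1 (exact interval 5.60 to 7.97) and 190 in replicate 2 (73.8 to 698).

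Irf5 (ENSMUSG00000029771; chromosome 6, 29526625 to 29541871, plus strand), which acts downstream of Toll-like receptors and MyD88, had 251 counts in replicate 1, or 6.02 CPM (5.32 to 6.81), and 75 in replicate 2, or 1.80 CPM (1.44 to 2.26). Irf8 (ENSMUSG00000041515; chromosome 8, 120736358 to 120756694, plus strand), a factor of myeloid cells and B cells, had 64 counts in replicate 1, or 1.53 CPM (1.20 to 1.96), and 7 in replicate 2, or 0.168 CPM (0.0816 to 0.348). Irf4 (ENSMUSG00000021356; chromosome 13, 30749226 to 30766976, plus strand), a factor of lymphocytes, had 1 count in replicate 1 and 2 in replicate 2. Irf5 and Irf8 were higher in replicate 1, and Irf4 was not above 3 counts in either library. In bulk RNA, fewer cells that express a gene and less of its RNA per cell cannot be told apart.

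Of 10 markers of blood cells, 2 had 0 counts in both libraries, Adgre1 and Lyz2 of macrophages, and Ptprc, which encodes the CD45 of leukocytes, had 5 and 4. Csf1r, the receptor for a macrophage growth factor, had 95 counts in replicate 1 and 1 in replicate 2, and Cd79a of B cells had 194 and 44. The list as a whole summed to 157 CPM in replicate 1 and 130 CPM in replicate 2, most of it from Laptm5 with 4207 and 3587 counts, and from Cd68 and Cd3e. Of the 6 markers with a mean count of 10 or more, 2 were higher in replicate 1 beyond 2-fold and 0 were lower, beside 14.2% and 7.14% of all genes. The part of blood cells in the levels of Irf5 and Irf8 was not tested. Of 8 markers of fibroblasts and feeder cells, Postn had 0 counts in both libraries and the list summed to 27.2 and 18.1 CPM, most of it from Thy1 with 823 and 621 counts, and 1 of the 3 with a mean count of 10 or more, Pdgfrb, was higher in replicate 1 beyond 2-fold. Of 6 endoderm markers, 4 had a mean count of 10 or more and the list summed to 16.3 and 8.54 CPM, most of it from Gata4 with 586 and 318 counts, and Dab2 and Gata6 were higher in replicate 1 beyond 2-fold. Of the 10 stem cell markers, Dppa5a was higher in replicate 1 beyond 2-fold and 0 were lower. The same shares of all genes stand beside the counts of fibroblast, endoderm and stem cell markers.

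Between genes, levels were compared per kilobase of merged exons. On that scale Irf1 was highest at 21.1 ± 10.4 CPM per kilobase (SD, n = 2), followed by Irf9 at 12.1 ± 1.43, Irf3 at 6.09 ± 1.11, Irf2 at 2.71 ± 1.58, Irf5 at 1.35 ± 1.03, Irf7 at 0.483 ± 0.646 and Irf8 at 0.121 ± 0.137. The values of the libraries did not overlap between Irf1 and Irf9, between Irf9 and Irf3, or between Irf3 and Irf2. They overlapped between Irf2 and Irf5, between Irf5 and Irf7 and between Irf7 and Irf8, so those neighbours in the order did not differ beyond the spread between the libraries. Within each library the order nevertheless held: Irf2 was above Irf5 (3.83 against 2.07 in replicate 1, 1.60 against 0.621 in replicate 2) and Irf5 above Irf7 (2.07 against 0.940, and 0.621 against 0.0255). Irf7 was above Irf8 in replicate 1 (0.940 against 0.217), and in replicate 2, with 4 and 7 counts, they were at 0.0255 and 0.0239. Irf4 came last at 0.00735 CPM per kilobase, from 3 counts in all. Merged exons include retained introns, which lengthen Irf2 to 7396 bases against 2497 in its main coding transcript. Per kilobase of the main coding transcript the order was the same, but Irf2 (11.3 and 4.73) then overlapped Irf3 (11.6 and 8.99) and no longer overlapped Irf5 (2.69 and 0.805).

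Among 14685 protein-coding genes with a mean count of 10 or more, Irf1 ranked 2437 by CPM per kilobase, Irf9 ranked 4242, Irf3 ranked 6736 and Irf2 ranked 9207. Irf5, Irf7 and Irf8 ranked 10701, 12244 and 13987, in the lower part of the range.

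The libraries were next compared gene by gene, as the log2 ratio of replicate 1 over replicate 2 after scaling by the TMM method of edgeR and adding a pseudocount of 1, with exact 95% intervals for counting error. A mean count of 10 or more was found for 17788 genes, and for 7 of the 8 members, Irf4 being the exception. All 7 had a log2 ratio above 0, as did 51.3% of all genes. Beyond 2-fold, 4 of the 7 were higher in replicate 1 and 0 were lower, where of all genes 14.2% were higher and 7.14% were lower. Irf7 and Irf8 were also higher beyond 4-fold, as were 4.17% of all genes. The median log2 ratio of the 7 was 1.14, and that of all 17788 genes was 0.02. The filter takes the mean of both libraries, so a gene low in 1 of them passes through the other.

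**Figure D2:**
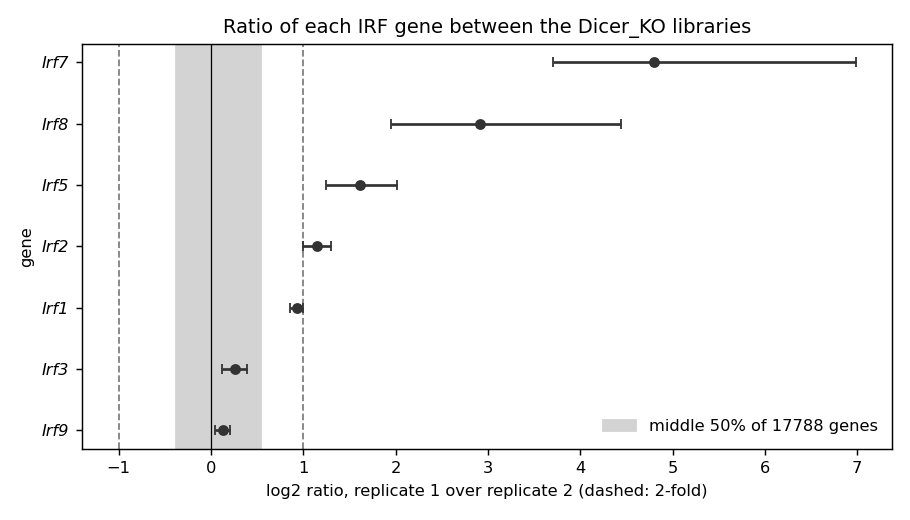
Log2 ratio of replicate 1 over replicate 2 for the 7 IRF genes with a mean count of 10 or more, with exact 95% intervals for counting error, the middle 50% of 17788 genes in grey and the 2-fold thresholds dashed. Irf9 and Irf3 lie inside the grey band, and Irf7 lies at 4.80.

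Irf7 had the largest log2 ratio of the family, 4.80 (3.70 to 6.98), and 14 of the 17788 genes had a higher one. Irf8 followed with 2.91 (1.95 to 4.44), which 227 genes exceeded, and Irf5 with 1.61 (1.24 to 2.01), which 1218 exceeded. The interval of Irf8 reached below 4-fold. The ratios of Irf7 and Irf8 rest on 4 and 7 counts in replicate 2.

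Irf2 had a log2 ratio of 1.14 (0.99 to 1.30) and Irf1 of 0.93 (0.86 to 1.00), on either side of the 2-fold threshold, and the interval of each included it. When total counts replaced the TMM factors, the median of all genes moved from 0.02 to 0.14 and Irf1 came to 1.04, so that 5 members in place of 4 lay beyond 2-fold. Irf3 had a log2 ratio of 0.25 (0.12 to 0.39) and Irf9 of 0.12 (0.05 to 0.20). Many genes exceeded the ratios of these members, 36.3% that of Irf3 and 43.5% that of Irf9.

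**Figure D3:**
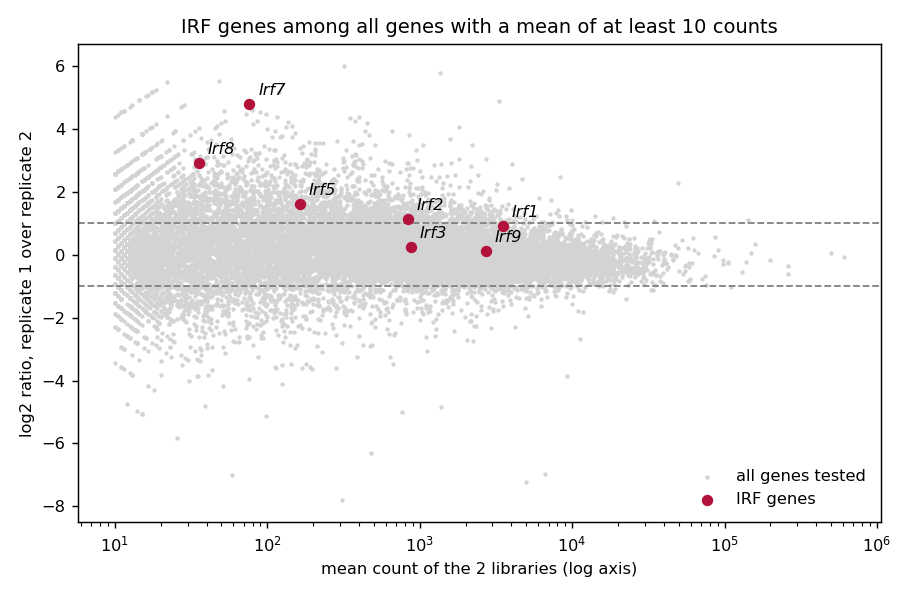
Log2 ratio of replicate 1 over replicate 2 against the mean count of the libraries (log axis) for the 17788 genes with a mean count of 10 or more, with the 7 IRF genes named and the 2-fold thresholds dashed. Irf7 lies near the upper edge of the genes, and Irf3 and Irf9 lie near the middle.

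The 3 IRF2-binding proteins, corepressors first found through IRF2, were more even than Irf2. Irf2bp1 had 875 and 736 counts, Irf2bp2 had 3332 and 2276, and Irf2bpl had 4724 and 3425. Their log2 ratios were 0.13, 0.43 and 0.34, and none lay beyond 2-fold, where of all genes 14.2% were higher and 7.14% lower.

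The 2 nearest protein-coding genes on either side of each member numbered 32, of which 27 had a mean count of 10 or more. Of the 27, 6 were higher in replicate 1 beyond 2-fold and 0 were lower, beside 14.2% and 7.14% of all genes, with a median log2 ratio of 0.15 and a range of -0.75 to 3.58. Beside Irf7, Cdhr5 (24 and 1 counts) and Sct (61 and 8 counts) on one side had log2 ratios of 3.58 and 2.68, whereas Phrf1 (5080 and 5767 counts) and Rassf7 (1083 and 535 counts) on the other had -0.31 and 0.89. The genes beside Irf8, by contrast, were even: Cox4i1, Emc8 and Mthfsd had log2 ratios of 0.15, -0.28 and 0.12. Rec8, next to Irf9, had 2038 and 699 counts and a log2 ratio of 1.42, above the 0.12 of Irf9 itself. Gm12216 beside Irf1 had 2.44 from 28 and 4 counts, Rras near Irf3 had 1.49, and Dusp22 near Irf4 had 1.94.

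**Figure D4:**
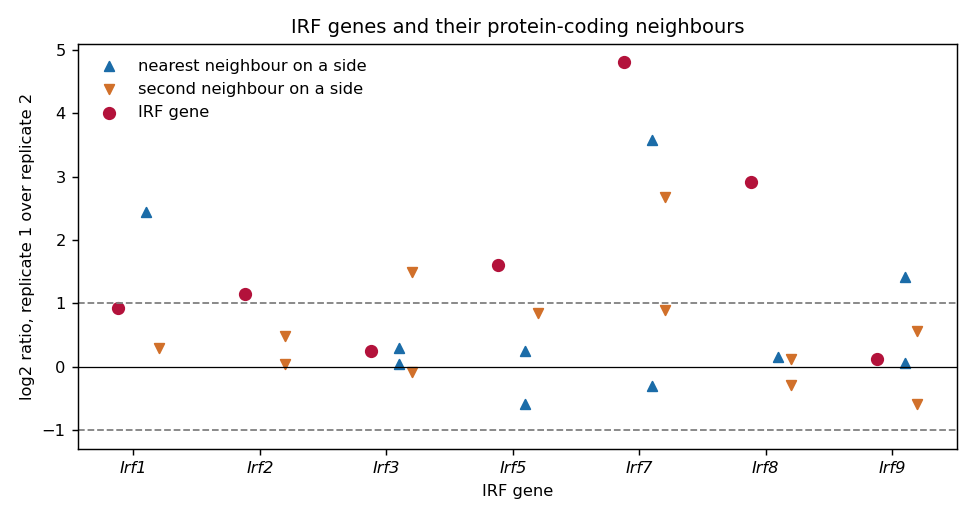
Log2 ratio of replicate 1 over replicate 2 for 7 IRF genes (circles) and for the nearest (upward triangles) and second (downward triangles) protein-coding genes reported here on either side, where the mean count was 10 or more. The triangles beside Irf8 lie between -0.28 and 0.15, and those beside Irf7 lie between -0.31 and 3.58.

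The members were then set beside the genes that act before and after them, on lists written with earlier results of these data known. Of 21 interferon genes, the products of IRF3 and IRF7 activity among them, 16 had 0 counts in both libraries and no single count was above 4. Ifnb1, the first type I interferon to be made in most cells, had 1 and 0 counts, against the 0.0719 and 0.0722 CPM that 3 counts stand for. The list summed to 11 counts in replicate 1 and 3 in replicate 2, with Ifnl2 and Ifnk at 4 and 0 counts each and Ifng at 1 and 2.

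All 14 genes of the nucleic acid sensors, adaptors and kinases upstream of IRF3 and IRF7 had a mean count of 10 or more, and 2 were higher and 2 lower in replicate 1 beyond 2-fold, beside 14.2% and 7.14% of all genes. Their median log2 ratio was -0.02, and 0.10 with total counts. Tmem173, which encodes the adaptor STING, had 406 counts in replicate 1 and 31 in replicate 2 (log2 ratio 3.55, 3.06 to 4.17), and Ifih1, which encodes the double-stranded RNA sensor MDA5, had 342 and 40 (2.95, 2.50 to 3.48). Ddx58, which encodes the sensor RIG-I, went the other way with 2525 and 5147 counts (-1.15, -1.22 to -1.08). So did Tlr3, the endosomal receptor for double-stranded RNA, with 132 and 264 (-1.12, -1.43 to -0.82). Mavs, the adaptor of RIG-I and MDA5, had 2448 and 1716 counts, and Irak1, a kinase of the MyD88 route, had 2238 and 2166.

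Of the 11 receptor subunits, kinases and STATs that lead to ISGF3, 1 was higher in replicate 1 beyond 2-fold and 0 were lower, beside 14.2% and 7.14% of all genes, and the median log2 ratio was 0.30. The one beyond 2-fold was Il10rb, a subunit of the receptor for type III interferons, at 2.24 from 168 and 32 counts. Stat2, the partner of IRF9, had 2484 and 1222 counts (0.90), where Irf9 itself had 0.12. Jak1 had 5567 and 5413 counts (-0.08), Tyk2 had 3078 and 2292 (0.30) and Ifnar1 had 2305 and 3346 (-0.66).

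Of 5 partners with which IRF4 and IRF8 bind DNA, 4 had a mean count of 10 or more, and 2 of the 4, Batf (51 and 17 counts) and Spi1 (82 and 31 counts), were higher in replicate 1 beyond 2-fold. Spib had 62 and 43 counts, and Batf2 had 23 and 12. The median log2 ratio of the 4 was 1.01, and the shares over all genes were 14.2% higher and 7.14% lower.

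Known target genes of the factors were measured last. Their lists were written with earlier results of these data known, so the counts of genes below are a description. Of 32 genes known as targets of ISGF3, 28 had a mean count of 10 or more, and 15 of these were higher in replicate 1 beyond 2-fold, 1 was lower and 12 lay between, where of all genes 14.2% were higher and 7.14% lower. Their median log2 ratio was 1.18, against 0.02 over all genes. Ifi27 had 144 counts in replicate 1 and 4 in replicate 2 (4.76, 3.66 to 6.94), and Isg15, the ubiquitin-like modifier, had 165 and 7 (4.27, 3.36 to 5.77). Both passed the filter through replicate 1, as did Irf7 with 148 and 4 counts. With 2 libraries, a likeness of counts between genes has no meaning. Of the 3 targets with the most counts, Trim25, a ubiquitin ligase that acts on RIG-I, had 11313 and 11787 counts (-0.18), and Xaf1 had 5473 and 3430 (0.55). The other, Ddx58, was the 1 gene of the list that was lower in replicate 1 beyond 2-fold, and Ifit2 was at -0.82 from 81 and 132 counts.

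Of 16 genes known as targets of IRF1, 14 had a mean count of 10 or more, 6 were higher in replicate 1 beyond 2-fold and 0 were lower, beside 14.2% and 7.14% of all genes. Their median log2 ratio was 0.88, against 0.02 over all genes. Psmb8, an immunoproteasome subunit, was at 2.90 (2.69 to 3.14) from 1497 and 183 counts, and Tap2, of the peptide transporter for class I presentation, was at 2.65 (2.42 to 2.91) from 1095 and 159. Its partner Tap1 was at 1.05 from 1501 and 664 counts, and Tapbp, which loads the peptides, at 0.87 from 6771 and 3406. The lowest ratios of the list were 0.45 for Il15, from 33 and 22 counts, and 0.49 for Psmb10, from 909 and 595. Bst2, which stands on the list of ISGF3 targets as well, was at 1.24 from 2984 and 1161 counts.

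**Figure D5:**
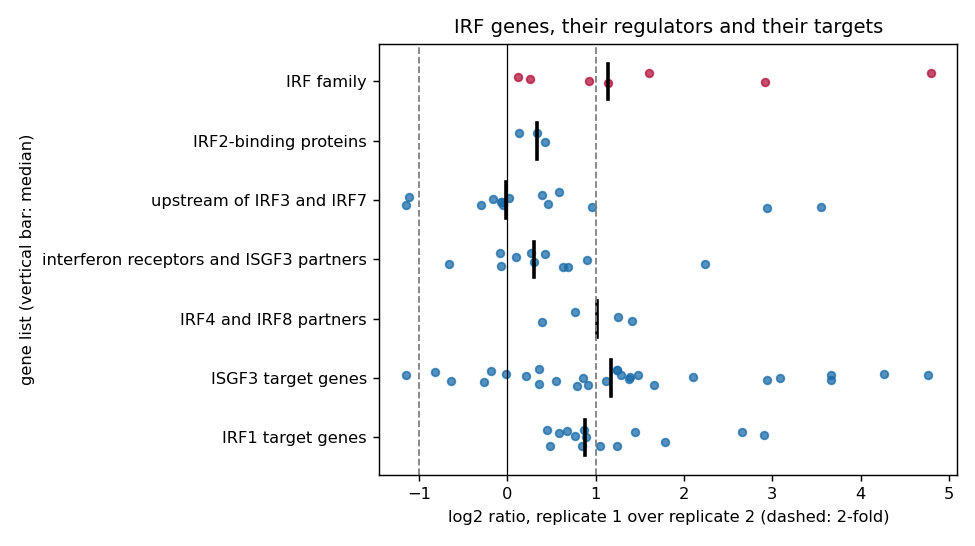
Log2 ratio of replicate 1 over replicate 2 for the genes of each list with a mean count of 10 or more, 1 point a gene, with the median of each list as a vertical bar and the 2-fold thresholds dashed. The medians of the IRF family and of the ISGF3 targets lie at 1.14 and 1.18, and that of the genes upstream of IRF3 and IRF7 lies at -0.02.

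The counting left out reads where genes overlap, which can touch some members. In GENCODE M21, 14.1% of the merged exon length of Irf5 is shared with Tnpo3 and 3.40% of that of Irf1 with Gm17334, each on the opposite strand. Irf9 shares 2.28% with Rnf31 on the same strand, and Irf2, Irf4 and Irf8 share none. For the opposite-strand pairs this matters only if strand was not used in the counting, which the sources used here do not give.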

How the data were processed

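PolyA RNA of 2 Dicer_KO libraries was analysed. The authors trimmed the reads, aligned them with STAR (version 2.4.2a) to mm10, keeping reads with many alignments, and used featureCounts (version 1.4.5-p1) for the counting on Ensembl genes, in which reads where genes overlap were left out. The deposited values are raw counts per gene, from a reverse-stranded protocol. The strand setting of the counting, and how it treated reads with several alignments, are not given in the sources used here.

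Gene symbols came from GENCODE M21 (GRCm38), which names 42462 of the 43629 listed genes. TMM factors were computed with edgeR (version 4.0.16, R 4.3.3), and alternatives with total counts, DESeq2 size factors (version 1.42.0), a 4-fold threshold, other minimums for the count, other gene lengths and a pseudocount of 0.1. Scaling and calling were tested on simulated data, in which as many genes were raised as lowered by 4-fold. In the real libraries more genes were higher in replicate 1 than lower, so that test does not check scaling under such an imbalance. With 1 library at each passage, and the line of each not given by the labels, no test and no p-value was computed. The libraries are not copies of 1 library (chi-square over degrees of freedom of 140 across 17788 genes).

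The members and lists were chosen with earlier results of these data known. Named were all members, the IRF2-binding proteins, Dicer1, the neighbours described, and of each list the 3 genes with the most counts, the 2 of highest ratio and the 2 of lowest ratio. Ifnb1 and the other markers were named after their values were seen. Protein sequences were not used here, and some genes that the rule covers are not reported here.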

Additional observations from a re-analysis of the deposited data

How the results depend on the processing

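No paired analysis was possible because there is 1 group only. Across 47 results, 165 values were computed under alternatives, of which 141 kept their direction and stayed within counting error, within the spread between the libraries or, for counts of genes, within 1.5 times. Leaving out either library moves a mean of 2 by less than their SD by construction, so that alternative shows no stability. Some lists kept the same genes with no filter and with a minimum mean of 50 counts, so those values could not change. These were the IRF2-binding proteins, the genes upstream of IRF3 and IRF7, the receptors and ISGF3 partners, and the stem cell markers. Total counts in place of TMM factors moved the log2 ratio of Irf1 to 1.04 and that of Irf9 to 0.24, turned the median of the genes upstream of IRF3 and IRF7 from -0.02 to 0.10, and raised the receptors and ISGF3 partners higher in replicate 1 beyond 2-fold from 1 to 2 of 11. At 4-fold, 2 of 7 members were higher in replicate 1, with 741 of all genes higher and 275 lower. Over all genes, 2533 were higher and 1270 lower beyond 2-fold (66.6% of the calls higher). A minimum mean of 50 counts gave 1643 and 681 of 14314 (70.7%), and no filter gave 4050 and 3888 of 43629 (51.0%). At that minimum 1 of 2 partners of IRF4 and IRF8, 1 of 5 blood cell markers and 0 of 1 endoderm markers were higher beyond 2-fold, and with no filter 2 of 8 fibroblast markers were. Per kilobase of the longest transcript the levels were 39.3 CPM for Irf1, 5.06 for Irf2, 10.3 for Irf3 and 16.8 for Irf9. Per kilobase of the main coding transcript, an alternative chosen after seeing the data, they were 39.3, 8.04, 10.3 and 22.0, and 0.299 for Irf8. These moves follow from the shorter lengths. The moves with total counts follow from a scaling shared by all genes, whose median moved from 0.02 to 0.14. The cause of the other moves was not tested. Depth limits Irf4 in both libraries and Irf7 and Irf8 in replicate 2, where 1 count is a large part of the value.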
